A study of Mus musculus with 18 samples.

Results

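The comparison described here asked how the mRNA makeup of light polysomes differed in Dap5 knockdown cells beyond the difference in the amount of each mRNA in the cell. It was formed from the raw counts as a difference of differences, shDap5 light minus shDap5 input, less NSi light minus NSi input, on the log2 scale. The groups came from the sample titles, and 12 of the 18 libraries of the series entered the comparison, 3 in each of 4 groups. The cells were 4T1, a BALB/c mouse mammary carcinoma line labelled as triple-negative breast cancer. All groups carried a hairpin and were grown with 2 µg/ml doxycycline for 6 days, either with a hairpin against Dap5 (shDap5) or with a non-silencing hairpin (NSi, the control). Polyadenylated RNA was sequenced from pooled light polysome fractions of a sucrose gradient (light) and from unfractionated RNA (input). Each arm was 1 line and uninduced cells were not sampled, so a response to the hairpin cannot be told apart from an older difference between the lines. Separate cultures for the libraries of a group are not stated in the labels, and p-values reflect a spread among libraries that may be technical.

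DAP5 is the product of the gene Eif4g2, a relative of the scaffold protein eIF4G that lacks the site for the cap-binding protein eIF4E. It can join eIF3d, a subunit of initiation factor eIF3 that also binds the cap, and so serve translation that does not need eIF4E. An mRNA under translation moves in a sucrose gradient by the number of ribosomes it carries, and the light polysome fractions hold mRNAs with few of them. A level in a fraction is a share of that fraction's RNA, so a move between light polysomes, heavy polysomes and RNA without ribosomes cannot be told apart from the light libraries alone.

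Total counts ran from 30940897 to 39446351 in the light libraries and from 49130045 to 69233705 in the inputs. A count of 0 allows up to 3 counts, which is 0.0433 to 0.0970 CPM (counts scaled to library size) depending on the library. Such floors cover counting error only. Carcinoma markers were present in all 12 libraries, with Epcam at 83.9 to 451 CPM, Krt8 at 280.2 to 663 CPM and Krt14 at 6.54 to 110.1 CPM. Summed lymphocyte markers reached 0.304 CPM and summed red cell markers 0.120 CPM at most. Summed endothelial, macrophage, fibroblast and adipocyte markers reached 106, 105, 40.2 and 5.88 CPM. The shDap5 input of number 2 stood apart from the other inputs. Its root mean square deviation from its group mean over genes was 0.305 on the log2 scale, against 0.151 and 0.183 for shDap5 inputs 1 and 3 and 0.0814 to 0.115 for the NSi inputs. The chi-square per degree of freedom was 122 and 121 between that input and its replicates, and 11.0 between those replicates themselves. The lists and 79 genes were therefore also read without this library. Those values are added where leaving it out moved a gene or list of the text by over 1.5 times, and for some others. No such value was taken for Eif1ax, Eif2b2, Hmgcs1, Mcm5, Mcm6, Cdc6, Zfp101, Cd68 and Csf1r. Light libraries deviated from their group means by 0.228 to 0.274.

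No gene passed the test. edgeR's quasi-likelihood test called 0 of 15072 genes at an adjusted p under 0.05 (0%), and DESeq2 also called 0. By edgeR 320 genes (2.12%) had an unadjusted p under 0.05, of which 125 (0.829%) were higher and 195 (1.29%) lower on shDap5 light polysomes relative to input. By DESeq2 470 genes had one. The log2 difference lay above 0 for 44.8% and below 0 for 55.2% of tested genes, with a median of -0.04. The median standard error (SE) was 0.34. In the 10361 genes that averaged 5 CPM or more, the 95% interval extended 0.589 to either side of the estimate at the median gene, and 53 genes had a difference over 1 in size. Deviations of libraries with the same number went together across the arms, clearly on light polysomes and only weakly in input. No such pairing is stated in the labels. With it in the fit (a replicate block within fraction, added after seeing the data), the interval extended 0.356 to either side at the median gene. Under the block 1622 genes (10.8%) had an unadjusted p under 0.05 and 0 were called. The share was 9.37% without shDap5 input 2. By themselves the arms were separated more often in input than on light polysomes, with no overlap of the libraries for 37% of genes in input and 19.9% on light.

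**Figure D1:**
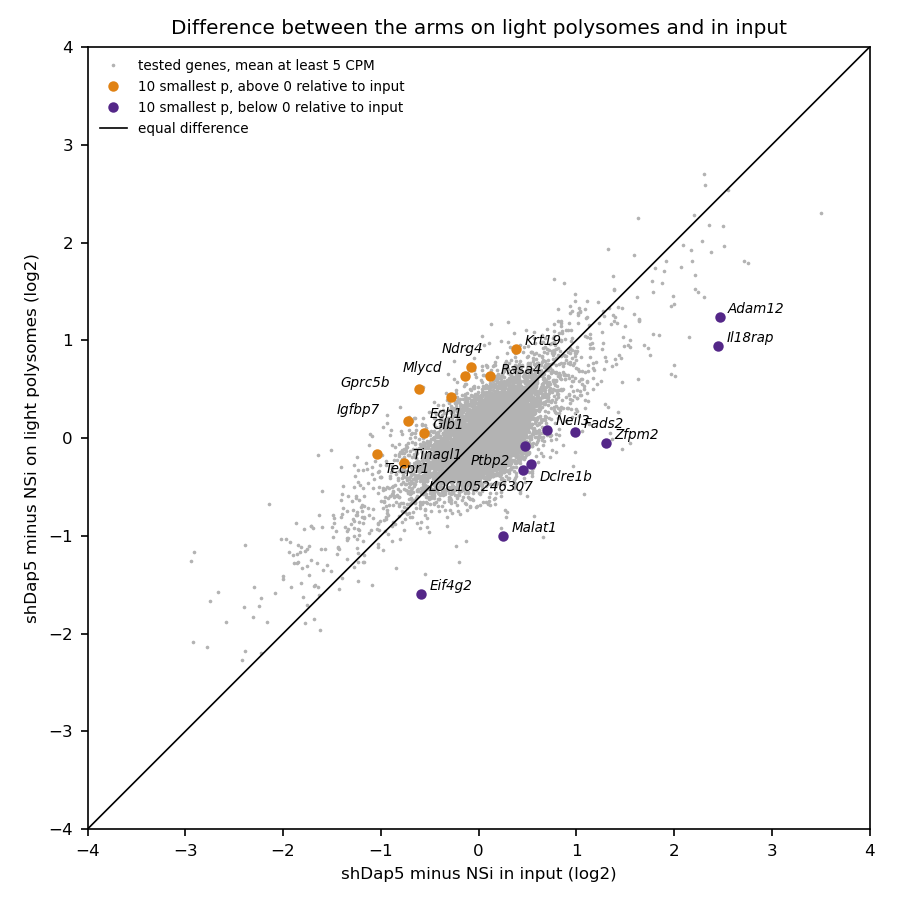
Log2 difference of shDap5 minus NSi on light polysomes (vertical axis) against the same in input (horizontal axis), 1 point per gene averaging 5 CPM or more. The line marks an equal difference in both, orange and purple points are the 10 genes with the smallest p above and below it, and Eif4g2 lies at -1.60 on light and -0.59 in input. No gene passed the test after adjustment.

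Eif4g2, the target of the hairpin, was among the genes farthest below 0. On light polysomes it stood at 429, 311 and 274 CPM in shDap5 and 1315, 983 and 769 CPM in NSi. In input it stood at 592, 340.4 and 671 CPM in shDap5 and 799, 759 and 852 CPM in NSi. The arms did not overlap in either fraction, and the gap was wider on light polysomes. The log2 difference on light relative to input was -1.01 (SE 0.36, 95% interval -1.77 to -0.25, unadjusted p = 0.0119, edgeR adjusted p = 1), which ranked 61 of 15072 by p. Taken alone, the arms differed by -1.60 on light and by -0.59 in input. Without shDap5 input 2, the lowest of the inputs, the value was -1.25 (SE 0.33, edgeR adjusted p = 0.210). On heavy polysomes relative to the same inputs it was -0.87 (SE 0.36).

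The factors that work with DAP5 or in its place were measured next to it. Eif4e, the cap-binding subunit of eIF4F, stood at 119.8, 85.5 and 91.6 CPM in shDap5 and 151, 99.1 and 99.9 CPM in NSi on light polysomes. Its inputs were at 104, 60.7 and 113 CPM in shDap5 and 70.6, 66.1 and 75.3 CPM in NSi, so that inputs 1 and 3 of the knockdown lay above all controls and input 2 below them. Its difference was -0.63 (SE 0.31, interval -1.29 to 0.03), or -0.86 without shDap5 input 2. Eif4g1, the main scaffold of eIF4F, was at -0.29 (interval -0.99 to 0.41), and Eif4g3, a further eIF4G scaffold, at -0.11 (interval -0.61 to 0.39). Eif3d was at 0.28 (interval -0.22 to 0.77), or 0.18 without shDap5 input 2. On light polysomes all 3 shDap5 libraries of Eif3d, at 264, 329 and 311 CPM, lay above the NSi libraries at 245, 251 and 240.4 CPM. Of the 13 tested members of the list of DAP5, eIF4F and eIF3d genes, 5 lay above 0 and the median was -0.11. Among 33 other initiation factors 15 lay above 0, with a median of -0.09 (-0.17 without shDap5 input 2) and a range of -0.64 to 0.30. The farthest were Eif1ax at -0.64, a factor of start codon scanning, and Eif2b2 at 0.30, a subunit of the exchange factor of eIF2. With all libraries edgeR called 0 members of either list, and only Eif4g2 had an unadjusted p under 0.05. In each list 2 members had one without shDap5 input 2, all below 0.

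**Figure D2:**
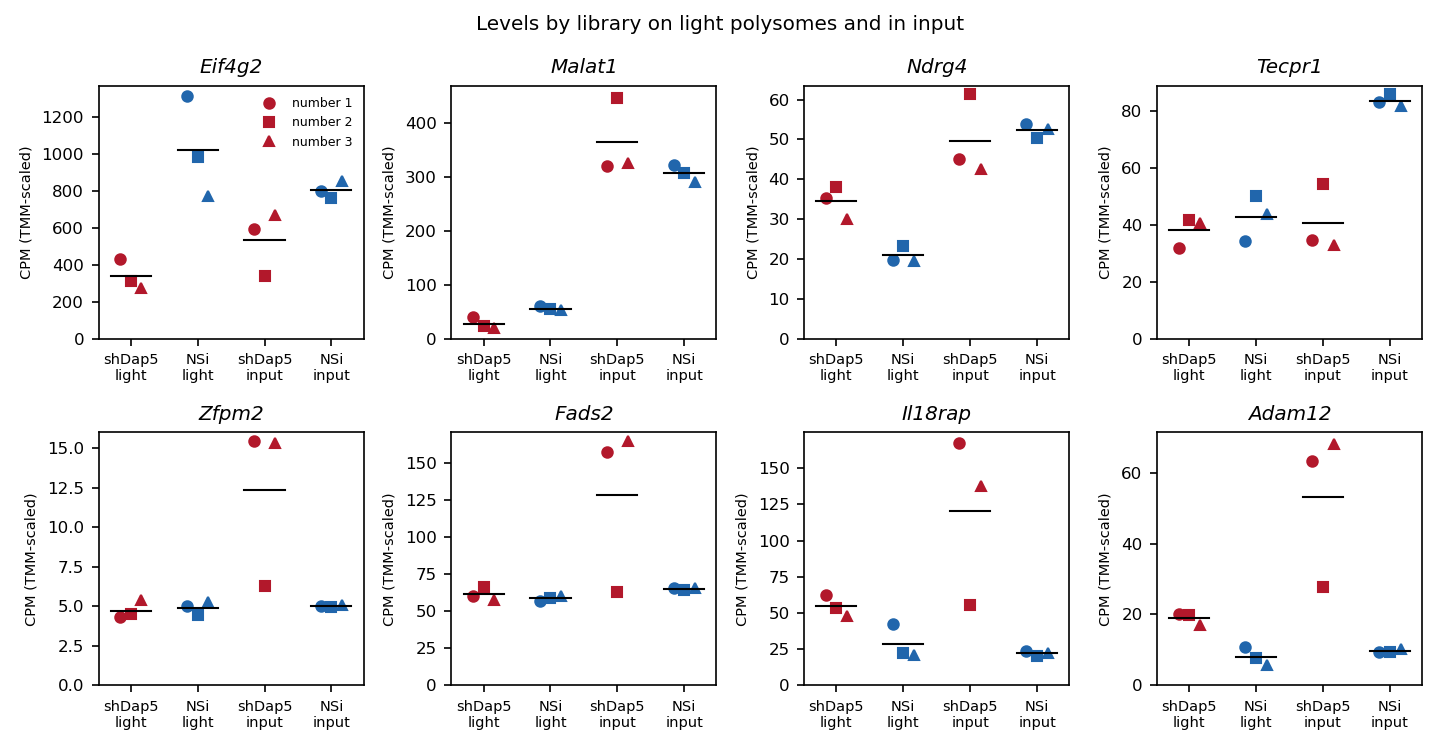
TMM-scaled CPM of 8 genes by library, with shDap5 in red and NSi in blue, light polysomes at the left and input at the right of each panel. Points are libraries, their shapes give the number in the title and the bar is the group mean. In Zfpm2, Fads2, Il18rap and Adam12 the shDap5 inputs 1 and 3 lie far above the NSi inputs and input 2 lies nearest to them, while Ndrg4 and Malat1 separate the arms on light polysomes.

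The 10 genes with the smallest p above 0, among those averaging 5 CPM or more, had differences of 0.51 to 1.10, and none passed. In 5 of them the arms were separated on light polysomes with shDap5 higher, and 4 of these overlapped in input. Over all tested genes the arms were separated, in either direction, for 19.9% on light and 37% in input. The 10 were chosen by a p from these same libraries, so such counts describe the choice. Ndrg4, a member of the NDRG family, stood at 35.2, 38.1 and 30.1 CPM in shDap5 and 19.8, 23.3 and 19.6 CPM in NSi on light polysomes. Its inputs overlapped, at 45.1, 61.3 and 42.6 CPM in shDap5 and 54.0, 50.5 and 52.7 CPM in NSi. The difference was 0.80 (SE 0.21, interval 0.36 to 1.24, unadjusted p = 0.00132, edgeR adjusted p = 1). Rasa4, which switches off Ras in response to calcium, showed the same arrangement. It stood at 112, 118 and 122 CPM in shDap5 and 70.8, 66.9 and 88.7 CPM in NSi on light polysomes, with a difference of 0.52 (SE 0.20). Mlycd, the decarboxylase of malonyl-CoA, and Ech1, an enzyme of fatty acid oxidation, had differences of 0.78 (SE 0.26) and 0.71 (SE 0.27). Krt19, a keratin of simple epithelia, was higher in shDap5 in both fractions. It stood at 245, 253 and 270.2 CPM in shDap5 and 121, 143 and 144 CPM in NSi on light polysomes, and at 159, 174 and 162 CPM in shDap5 and 129, 121 and 129 CPM in NSi inputs. The gap was wider on light polysomes, by 0.53 (SE 0.20).

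In the other 5 the gap was larger in input than on light polysomes. Tecpr1, a protein of autophagosome maturation, stood at 34.5, 54.4 and 32.8 CPM in shDap5 and 83.2, 86.0 and 81.6 CPM in NSi inputs. On light polysomes the arms overlapped, at 31.8, 41.7 and 40.6 CPM in shDap5 and 34.2, 50.1 and 43.7 CPM in NSi. The difference was 0.88 (SE 0.26, interval 0.32 to 1.43, edgeR adjusted p = 1). Igfbp7, a secreted protein related to the binding proteins of insulin-like growth factors, was at 0.91 (SE 0.30). Its shDap5 inputs, at 154, 261 and 144 CPM, lay below the NSi inputs at 284, 351 and 290.3 CPM, and its light libraries overlapped. Glb1, the lysosomal beta-galactosidase, was at 0.61 (SE 0.22). Gprc5b, an orphan receptor, was at 1.10 (SE 0.36), with arm differences of nearly equal size and opposite sign. These were 0.50 on light and -0.60 in input (SE 0.25 for each), and the arms overlapped in both fractions. Tinagl1, a secreted matricellular protein, was lower in shDap5 in both fractions, at -0.25 on light and -0.76 in input, which leaves 0.51 (SE 0.19). Without shDap5 input 2 the differences of Tecpr1 and Igfbp7 were 1.15 and 1.23.

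Among the 10 genes with the smallest p below 0, at -1.51 to -0.55, 7 separated the arms in input and 5 on light polysomes. Over all tested genes the shares were 37% and 19.9%. The 10 were chosen by a p from these same libraries, so their counts are not a separate result. Zfpm2, a cofactor of GATA transcription factors, stood at 15.5, 6.27 and 15.4 CPM in shDap5 and 5.03, 4.92 and 5.05 CPM in NSi inputs. On light polysomes it stood at 4.28, 4.50 and 5.36 CPM in shDap5 and 5.02, 4.41 and 5.23 CPM in NSi. Light libraries of the arms overlapped, and shDap5 inputs 1 and 3 were high. The difference was -1.36 (SE 0.37, interval -2.13 to -0.59, unadjusted p = 0.00158, edgeR adjusted p = 1), and -1.68 (SE 0.24, edgeR adjusted p = 0.00893) without shDap5 input 2. Fads2, the desaturase that begins the synthesis of long polyunsaturated fatty acids, repeated this arrangement. It stood at 157, 62.9 and 165 CPM in shDap5 and 65.2, 63.9 and 65.4 CPM in NSi inputs, and at 59.9, 66.1 and 57.3 CPM in shDap5 and 56.6, 58.6 and 60.0 CPM in NSi on light polysomes. Its difference was -0.92 (SE 0.33), and -1.25 (SE 0.18, edgeR adjusted p = 0.00893) without shDap5 input 2.

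Il18rap and Adam12 were higher in shDap5 in both fractions, but less so on light polysomes. Il18rap, the accessory chain of the interleukin-18 receptor, stood at 62.1, 53.5 and 48.1 CPM in shDap5 and 42.3, 22.1 and 20.7 CPM in NSi on light polysomes. Input levels were 167, 55.2 and 138 CPM in shDap5 and 23.8, 20.1 and 21.9 CPM in NSi. The difference was -1.51 (SE 0.48), with input 2 again nearest to the controls. Adam12, a metalloprotease of the cell surface, was at -1.23 (SE 0.46). Neil3, a DNA glycosylase, Ptbp2, a splicing repressor, and Dclre1b, a nuclease of telomere ends, were at -0.61, -0.55 and -0.81. For Ptbp2 the shDap5 inputs were close together, at 66.3, 66.5 and 66.7 CPM against 45.3, 48.2 and 50.5 CPM in NSi, and the value without shDap5 input 2 was also -0.55. Il18rap, Adam12, Zfpm2 and Fads2 were at -1.36, -1.22, -1.17 and -1.07 on heavy polysomes relative to input, a comparison that shares the input libraries.

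Malat1, a long noncoding RNA that is held in the nucleus, separated the arms on light polysomes and overlapped in input. It stood at 40.4, 22.9 and 20.0 CPM in shDap5 and 59.7, 54.3 and 53.0 CPM in NSi light libraries. In the inputs it was at 321, 448 and 325 CPM in shDap5 and 323, 307 and 289.8 CPM in NSi. All light levels were below all input levels in both arms. The difference was -1.25 (SE 0.43, interval -2.15 to -0.35, edgeR adjusted p = 1), and -1.08 without shDap5 input 2. Among 26 tested noncoding RNAs 5 lay above 0, with a median of -0.15. Their library medians on light polysomes ranged from -0.34 to 0.40 in shDap5 and from -0.31 to 0.34 in NSi, relative to the NSi mean. Tug1 was at -0.57 (SE 0.28) and Airn at 0.92 (SE 0.36). 1 of the 26 had an unadjusted p under 0.05 in each direction, and edgeR called 0.

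**Figure D3:**
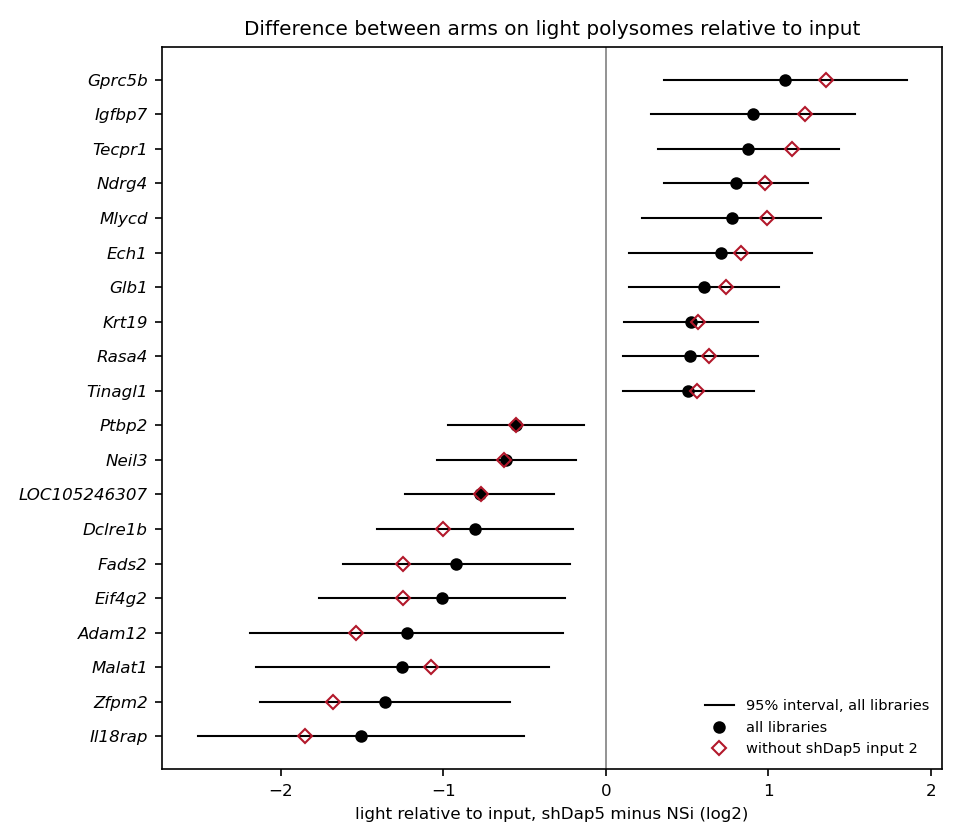
Log2 difference on light relative to input, shDap5 minus NSi (horizontal axis), for the 10 genes with the smallest p above 0 and the 10 below it, averaging 5 CPM or more. Filled points and lines are the estimates and 95% intervals with all libraries, and open diamonds are the estimates without shDap5 input 2, which lie farther from 0 for Zfpm2 (-1.68 against -1.36) and Il18rap (-1.85 against -1.51) and nearer to it for Malat1.

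Genes of cholesterol synthesis lay below 0 almost throughout. Of its 24 tested members 1 lay above 0, against 44.8% of all tested genes, and the median was -0.61 with a range of -0.98 to 0.03. edgeR called 0 of the 24, and 0 had an unadjusted p under 0.05. By library, the list's median relative to the NSi mean of the same fraction was 1.02, -0.07 and 0.94 in shDap5 inputs 1, 2 and 3. On light polysomes it was 0.01, -0.15 and 0.52 in shDap5 and 0.11, -0.38 and 0.29 in NSi. The light libraries of the arms overlapped, and shDap5 inputs 1 and 3 stood alone at the high end. Without shDap5 input 2 the median was -0.93, 0 of 24 lay above 0, and 13 had an unadjusted p under 0.05 with 0 called. Under the block within fraction the median was -0.55 and 8 had one, against 10.8% of all tested genes.

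Single members showed the arrangement. Stard4, which carries sterols between membranes, stood at 50.3, 51.9 and 64.2 CPM in shDap5 and 47.3, 39.6 and 49.0 CPM in NSi on light polysomes. Its input levels were 136, 59.2 and 135 CPM in shDap5 and 61.3, 48.0 and 56.3 CPM in NSi. The difference was -0.70 (SE 0.34, edgeR adjusted p = 1). Mvk, the kinase of mevalonate, was at -0.84 (SE 0.42), Idi1, an isomerase of the isoprenoid pathway, at -0.98 (SE 0.47), and Hsd17b7, a sterol reductase, at -0.83 (SE 0.46). Mvk stood at 44.3, 22.8 and 43.3 CPM in shDap5 and 24.5, 23.9 and 21.7 CPM in NSi inputs. In fatty acid synthesis 5 of 16 members lay above 0, the median was -0.30, and 2 had an unadjusted p under 0.05, both below 0. The median was -0.53 without shDap5 input 2, with 4 of 16 above 0, 6 unadjusted p-values under 0.05 below 0 and 1 above it, and Fads2 called. It was -0.12 without shDap5 number 1. The other member with such a p in all libraries, besides Fads2, was Scd2, a stearoyl-CoA desaturase, at -0.99 (SE 0.45). Scd2 stood at 2141, 862 and 2144 CPM in shDap5 and 847, 726 and 771 CPM in NSi inputs, and at 461, 423 and 787 CPM in shDap5 and 550.04, 375 and 589 CPM in NSi on light polysomes. Elovl6, an elongase, was at -0.79 (SE 0.41). On heavy polysomes relative to the same inputs the medians were -0.72 for cholesterol synthesis and -0.46 for fatty acid synthesis.

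Genes of S phase and DNA replication also lay below 0 with few exceptions. Of 42 members 2 lay above 0, the median was -0.36, and 1 had an unadjusted p under 0.05 with 0 called by edgeR. The list's medians in shDap5 were 0.40, -0.35 and 0.47 in inputs 1, 2 and 3 and 0.17, -0.25 and -0.35 on light polysomes, against -0.02 to 0.02 in NSi inputs and -0.07 to 0.07 in NSi light libraries. Input 2 and input 3 of the knockdown thus lay on opposite sides of the controls. Without shDap5 input 2 the median was -0.56, 0 of 42 lay above 0 and 13 had an unadjusted p under 0.05. Rfc4 and Rfc2, subunits of the clamp loader of replication, separated the arms on light polysomes. Rfc2 stood at 138, 136 and 128 CPM in shDap5 and 172, 168 and 153 CPM in NSi light libraries. Its inputs overlapped, at 85.6, 59.7 and 87.4 CPM in shDap5 and 68.5, 73.7 and 71.6 CPM in NSi, and its difference was -0.42 (SE 0.20). Rfc4 was at -0.50 (SE 0.23). Tyms, which makes thymidylate, was at -0.87 (SE 0.43) and Gins1, a subunit of the replicative helicase, at -0.67 (SE 0.38).

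Of 34 genes of G2 and mitosis 3 lay above 0, with a median of -0.25 and -0.39 without shDap5 input 2. Birc5, the survivin of the chromosomal passenger complex, was at -0.59 (SE 0.29) and Ccnb1, cyclin B1, at -0.38 (SE 0.21). The 10 genes reported elsewhere as DAP5 or eIF3d targets in survival and cell cycle had a median of -0.07 and 2 above 0. The mitotic kinase Cdk1 was the farthest, at -0.34 (SE 0.26, interval -0.88 to 0.20), or -0.55 without shDap5 input 2. Proteasome subunits had 5 of 33 above 0 and a median of -0.14, or 1 of 33 and -0.29 without shDap5 input 2. With all libraries none of these members was called by edgeR, and none had an unadjusted p under 0.05. In G2 and mitosis 8 genes had one without shDap5 input 2, as did 1 proteasome subunit and 1 reported target, all below 0 and 0 called. Without NSi number 1 the proteasome median was 0.02.

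**Figure D4:**
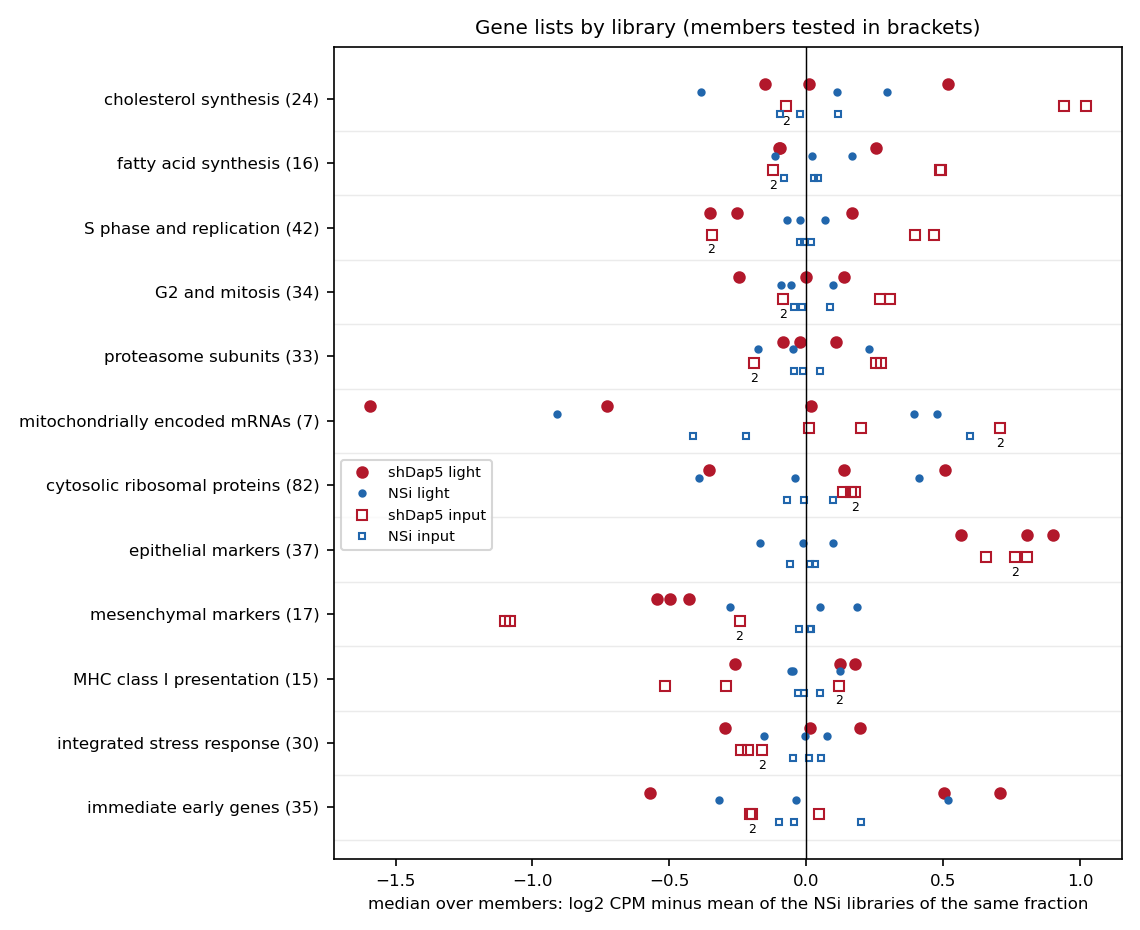
Median over the tested members of 12 gene lists in each library, as log2 CPM minus the mean of the NSi libraries of the same fraction (horizontal axis), with shDap5 in red and NSi in blue, light libraries as filled circles and inputs as open squares. The digit 2 marks shDap5 input 2, which lies apart from inputs 1 and 3 for cholesterol synthesis (-0.07 against 1.02 and 0.94) and for S phase (-0.35 against 0.40 and 0.47).

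Promoters of the cholesterol and S phase lists were searched because their members lay on the same side of 0 together. The 250 bases before the start in RefSeq (GRCm38.p6) were read on both strands. A sterol regulatory element, written TCACNCCAC, was found in 1 of the 17 matched promoters of the 24 cholesterol genes (5.88%) and in 1.05% of all 32851 promoters. The E2F motif TTTGGCGC was found in 3 of the 33 matched promoters of the 42 S phase genes (9.09%) and in 0.417% of all. The form TTTCCCGC was found in 3 of the 33 (9.09%) and in 0.895% of all. No promoter of the list held both forms, and 6 of 33 held either (18.2%, against 1.3% of all). List shares were counted by gene and the shares of all by promoter, over RefSeq and not only the tested genes. The shares are therefore not like for like, and enrichment was not tested. A match is a description of these letters and not a binding site. Shown are 100 bases around the match, with the motif in capitals, on the strand of the gene, for the enzyme that makes HMG-CoA (Hmgcs1), a pair of subunits of the MCM helicase (Mcm5 and Mcm6) and the loader of that helicase (Cdc6). Hmgcs1 lies at chr13:119690168-119690267 (plus strand), Mcm5 at chr8:75109314-75109413 (plus), Mcm6 at chr1:128359762-128359861 (minus) and Cdc6 at chr11:98907967-98908066 (plus). Mcm6 held a further TTTGGCGC match, at -47 from the start, which lies outside the bases shown around its match at -110. In Mcm5 and Cdc6 the motif stands in its reverse complement. Their differences on light relative to input were -0.61 (SE 0.56) for Hmgcs1, -0.34 (SE 0.33) for Mcm5, -0.25 (SE 0.30) for Mcm6 and -0.60 (SE 0.47) for Cdc6.
Hmgcs1: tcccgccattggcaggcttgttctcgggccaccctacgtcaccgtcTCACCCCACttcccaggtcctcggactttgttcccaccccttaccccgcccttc
Mcm5: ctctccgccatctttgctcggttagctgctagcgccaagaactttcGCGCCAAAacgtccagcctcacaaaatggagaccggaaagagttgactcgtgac
Mcm6: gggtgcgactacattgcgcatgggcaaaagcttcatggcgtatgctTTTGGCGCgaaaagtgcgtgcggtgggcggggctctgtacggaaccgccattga
Cdc6: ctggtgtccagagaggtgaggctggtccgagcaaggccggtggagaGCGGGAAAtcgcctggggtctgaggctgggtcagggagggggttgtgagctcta

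The 7 tested mRNAs encoded in mitochondria all lay below 0, at -1.37 to -0.77 with a median of -0.92, with wide spreads between numbers. CYTB, which encodes cytochrome b, stood at 7261, 2104 and 5982 CPM in shDap5 and 10401, 3204 and 13026 CPM in NSi on light polysomes. In input it stood at 3173, 3635 and 2696 CPM in shDap5 and 1514, 3155 and 1726 CPM in NSi. Taken as groups the arms overlapped in both fractions, and number 2 was the lowest light library in each arm. Within numbers shDap5 was lower than NSi on light polysomes in 3 of 3 and higher in input in 3 of 3. The difference was -1.37 (SE 0.69, interval -2.82 to 0.08, edgeR adjusted p = 1). With the block within fraction it was -1.39 (SE 0.23, unadjusted p = 1.92e-05, edgeR adjusted p = 0.234). Under that block 7 of the 7 had an unadjusted p under 0.05, against 10.8% of all tested genes, and 0 were called. Without it 0 of 7 had one. The block was added after seeing the data, and its pairing in input is uncertain. The 7 come from the same libraries and are not 7 separate results. ND5, a subunit of complex I, separated the arms on light polysomes, at 1711, 1820 and 708 CPM in shDap5 and 2547, 3616 and 2604 CPM in NSi. In input, shDap5 was higher within numbers for ND5 in 1 of 3 and for ND1, ND6 and COX1 in 2 of 3. For ND2 and ND4 it was higher in 3 of 3. On light polysomes shDap5 was lower in 3 of 3 for each of them. Counts of the 13 listed mitochondrial mRNAs made up 2.71, 0.955 and 1.53% of all counts in shDap5 and 3.54, 1.57 and 3.61% in NSi light libraries. In the inputs they made up 1.22, 1.79 and 0.974% in shDap5 and 0.824, 1.68 and 0.902% in NSi. These mRNAs are translated inside mitochondria, and their part in light fractions was not tested. Nuclear-encoded genes of the respiratory chain had 28 of 80 above 0 and a median of -0.07 (-0.14 without shDap5 input 2). Genes of the mitochondrial ribosome had 14 of 75 above 0 and a median of -0.13 (-0.21 without that input), and those of the cytosolic ribosome 31 of 82 and -0.05. With all libraries edgeR called 0 in these 3 lists, with 0 unadjusted p-values under 0.05. The median of the cytosolic ribosomal genes moved to -0.30 without shDap5 number 3 and to 0.21 without NSi number 3, in every fraction.

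Other lists lay mostly above 0. MHC class I presentation had 12 of 15 above 0 and a median of 0.36. Its median was 0.55 without shDap5 input 2, where 5 of 15 had an unadjusted p under 0.05, and 0.11 without shDap5 number 3. H2-D1, a classical class I heavy chain, stood at 359, 422 and 469 CPM in shDap5 and 429, 396 and 468 CPM in NSi on light polysomes. Its inputs were at 434, 569 and 393 CPM in shDap5 and 676, 693 and 672 CPM in NSi, so the arms were separated in input and overlapped on light polysomes. Its difference was 0.50 (SE 0.24), and that of H2-K1 was 0.47 (SE 0.24). Immediate early genes had 29 of 35 above 0 and a median of 0.26, which was 0.085 without NSi number 1 and 0.59 without NSi number 3. Their light libraries scattered widely, at 0.50, -0.57 and 0.71 in shDap5 and -0.04, -0.32 and 0.52 in NSi. Klf10, a Krüppel-like repressor, was at 0.39 (SE 0.22) and Gadd45a, a stress-induced regulator of growth arrest, at 0.79 (SE 0.47). Gadd45a was at 1.41 without shDap5 input 2 and ran from 0.27 to 1.44 with libraries left out. With all libraries edgeR called 0 members of these lists and 0 had an unadjusted p under 0.05.

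Genes of the integrated stress response, which follows phosphorylation of eIF2, had 25 of 30 above 0 and a median of 0.19. The farthest were Vldlr at 0.90 (SE 0.53), Trib3, a pseudokinase, at 0.86 (SE 0.54) and Sars, a seryl-tRNA synthetase, at 0.66 (SE 0.34). Vldlr was at 1.62 and Trib3 at 1.70 without shDap5 input 2, where 5 of the 30 had an unadjusted p under 0.05. Atf4, the transcription factor of the response, was itself at -0.05 (interval -0.67 to 0.57), or -0.15 without shDap5 input 2, and its sign turned with scaling by library size. Of 20 mRNAs known for regulatory upstream reading frames 9 lay above 0, with a median of -0.04 (-0.10 without shDap5 input 2). Atf5, a related factor with such frames, was at 0.86 (SE 0.45) and Cebpb at 0.80 (SE 0.52). With all libraries none of the 30 or of the 20 was called or had an unadjusted p under 0.05. Metallothioneins and NRF2 genes had 14 of 20 above 0, a median of 0.20 and 2 unadjusted p-values under 0.05. Mt1, a zinc-binding metallothionein, stood at 443, 154 and 422 CPM in shDap5 and 544, 389 and 689 CPM in NSi on light polysomes. Input levels were 13.8, 53.8 and 20.2 CPM in shDap5 and 129, 140.4 and 120.1 CPM in NSi. Its difference was 1.48 (SE 0.68, edgeR adjusted p = 1). It was 2.26 without shDap5 input 2 (edgeR adjusted p = 0.242), 0.90 without shDap5 number 1 and 2.61 without shDap5 number 2, where it was called (edgeR adjusted p = 0.0194). Hmox1, heme oxygenase, was at 0.47 (SE 0.22).

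Epithelial and mesenchymal markers, the identity genes of carcinoma cells, held 0 calls on light polysomes relative to input. Of 37 epithelial markers 17 lay above 0 with a median of -0.05 and 1 unadjusted p under 0.05, that of Krt19. The list's median was 0.75 on light polysomes and 0.66 in input. Cdh1, E-cadherin, was at 0.06 (interval -0.74 to 0.86), or 0.14 without shDap5 input 2. Of 17 mesenchymal markers 11 lay above 0 with a median of 0.21 (0.34 without shDap5 input 2) and 0 unadjusted p-values under 0.05. Their medians were -0.64 on light polysomes and -0.96 in input. Vim, vimentin, stood at 1157, 1661 and 2126 CPM in shDap5 and 2185, 2862 and 3233 CPM in NSi on light polysomes. In the inputs it was at 884, 831 and 947 CPM in shDap5 and 2043, 1927 and 2129.8 CPM in NSi. Arms were separated in both fractions, and the difference was 0.45 (SE 0.28, interval -0.15 to 1.05). Fn1, fibronectin, was at 0.55 (SE 0.49), Sparc, a matricellular glycoprotein, at 0.48 (SE 0.26) and Col5a1, a collagen chain, at 0.63 (SE 0.40), or 1.05 without shDap5 input 2. In bulk RNA, fewer cells of a type and less RNA per cell cannot be told apart.

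Transcription factors of the epithelial-mesenchymal transition had 9 of 13 above 0 and a median of 0.12, which ran from -0.03 to 0.25 with libraries left out. Snai1 stood at 26.4, 28.2 and 33.2 CPM in shDap5 and 26.1, 27.9 and 31.6 CPM in NSi on light polysomes, where the arms overlapped. Its input levels were 16.6, 18.01 and 17.4 CPM in shDap5 and 20.6, 22.0 and 20.5 CPM in NSi. Its difference was 0.32 (SE 0.28, interval -0.27 to 0.90). Twist1 was at 0.32 (interval -0.27 to 0.91) and Zeb2 at 0.24 (interval -0.65 to 1.13). Snai2 and Zeb1 were under 1 CPM in every library, with differences of 0.82 (SE 0.88) and -0.97 (SE 0.49). With all libraries edgeR called 0 of the 13 and 0 had an unadjusted p under 0.05. Zeb1 had one without shDap5 input 2, at -1.18.

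Leaving out shDap5 input 2, edgeR called 8 genes (0.0521%), 6 higher and 2 lower, and 1438 of 15345 genes (9.37%) had an unadjusted p under 0.05, the share against which the counts without it are read. The 8 were Selp, Atf5, Bdh2, Cox6a2, Grb14, Arl4d, Zfpm2 and Fads2, of which all but Zfpm2, Fads2 and Atf5 were chosen for the text after their values were seen. Selp, the adhesion molecule P-selectin, stood at 4.65, 5.79 and 5.80 CPM in shDap5 and 8.62, 13.8 and 12.2 CPM in NSi on light polysomes. In input it stood at 2.63, 16.7 and 2.21 CPM in shDap5 and 34.9, 40.1 and 38.0 CPM in NSi. The difference was 1.30 (SE 0.72) with all libraries and 2.87 (SE 0.36, edgeR adjusted p = 0.00638) without shDap5 input 2. Atf5 stood at 18.6, 66.5 and 21.6 CPM in shDap5 and 51.3, 64.7 and 51.2 CPM in NSi inputs, with overlapping light libraries at 223, 231 and 263 CPM in shDap5 and 170.4, 206 and 245 CPM in NSi. Its difference without shDap5 input 2 was 1.68 (SE 0.23, edgeR adjusted p = 0.00728).

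The remaining calls had the same shape, with shDap5 input 2 near or above the NSi inputs and inputs 1 and 3 away from them, except Selp and Grb14, where it lay between. Bdh2, a dehydrogenase of hydroxybutyrate, stood at 1.98, 6.69 and 1.44 CPM in shDap5 and 7.01, 7.68 and 7.32 CPM in NSi inputs. Grb14, an adaptor of the insulin receptor, and Arl4d, a GTPase of the ARF family, were at 2.26 and 2.14 without shDap5 input 2 (edgeR adjusted p = 0.0364 for each). Cox6a2, an isoform of a cytochrome oxidase subunit, was below the floor in shDap5 inputs 1 and 3, so no fold is given. With shDap5 number 2 left out of every fraction 11 genes were called, 9 higher and 2 lower, of which 7 were shared with the 8. The interferon-stimulated genes moved most with this library. Their median was 0.07 with 22 of 38 above 0, and 0.60 with 35 of 38 above 0 without shDap5 input 2. Without shDap5 number 3 it was -0.36. Their library medians were -0.04, 0.69 and 0.91 on shDap5 light polysomes and 0.17, 1.07 and -0.27 in shDap5 inputs.

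Across 10070 genes that averaged 5 CPM or more and had a GENCODE transcript model, the difference on light relative to input correlated more with base composition than with length. Spearman's rho was 0.32 with the GC content of the transcript, 0.14 with coding length and -0.01 with leader length. These are descriptions across genes that share the same 12 libraries. The 10 ranked genes above 0 had a median GC content of 57.9% and the 8 with a model among the 10 below 0 one of 46.3%, against 50.5% for all. Within libraries, the deviation from the NSi mean of the same fraction had a rho with GC of 0.06, 0.15 and 0.19 on shDap5 light and -0.39, -0.06 and 0.47 on NSi light polysomes. In input it was -0.11, 0.05 and -0.15 in shDap5 and 0.11, 0.27 and -0.46 in NSi. The NSi values of rho ranged more widely than the shDap5 values in both fractions. NSi libraries were set against their own mean and rho ignores the size of a deviation, so the arms cannot be compared by these values. The part of base composition in the difference was not tested. The level on light relative to input was lower for longer coding sequences, with a rho of -0.64 in shDap5 and -0.68 in NSi.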

How the data were processed

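The deposited files hold the authors' unnormalized counts by gene symbol, 1 file per library, from polyA-selected stranded libraries of 4T1 cells. Bowtie and the mouse build mm9 were used, per the submitters' processing notes. The version of Bowtie, how reads were counted, on which annotation and with which strand setting is not given in the sources used here, so near-identical families (ribosomal protein genes, histones, metallothioneins, class I genes) and overlapping genes are uncertain. Each file listed 35976 symbols, of which 27 are written like spreadsheet dates and are not named.

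Counts of all 18 libraries were fitted in edgeR 4.0.16 (R 4.3.3) and tested by its quasi-likelihood F test (robust, TMM scaling, filterByExpr at a minimum count of 10, total 15), with 1 mean per arm and fraction. The 6 heavy libraries served only to estimate the spread (12 residual degrees of freedom, common biological coefficient of variation 0.227). The contrast was tested over 15072 genes with Benjamini-Hochberg adjustment, and "called" means an adjusted p under 0.05. SE is the log2 difference divided by the square root of F, and CPM values are TMM-scaled. DESeq2 1.42.0, other scalings and filters, replicate blocks and leaving out libraries were alternatives. The test was also run on simulated counts with known differences, drawn with the group means and spreads of this fit.

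Named genes were Eif4g2, the 10 with the smallest p in each direction at a mean of at least 5 CPM, up to 4 members per list by smallest p, and a set of fixed genes. Not every gene the rule takes is named. The members, lists and rules were chosen with earlier results of these data known. Deviations of libraries with the same number correlated across the arms at 0.56 to 0.79 on light and 0.13 to 0.37 in input. In each fraction 3 of 3 pairs were over 0.1. In input, shDap5 number 1 correlated best with NSi number 3, so a pairing there is uncertain. Light and input within an arm correlated at -0.32 to 0.46 (2 of 6 over 0.1). Replicates differed beyond sampling noise, with a chi-square per degree of freedom of 8.82 at the lowest. Transcript lengths and GC content came from GENCODE M21 by symbol (10070 of the genes at 5 CPM), and promoters from RefSeq. No coordinate of the files' build is given.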

Additional observations from a re-analysis of the deposited data

Results flagged for a closer look

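LOC105246307, a locus with no named function in the sources used here, was singled out because every shDap5 library lay below every NSi library on light polysomes and above every NSi library in input. It stood at 31.5, 26.7 and 26.4 CPM in shDap5 and 37.4, 35.4 and 33.1 CPM in NSi light libraries. In input it stood at 42.8, 40.8 and 38.0 CPM in shDap5 and 27.9, 33.9 and 27.2 CPM in NSi. The log2 difference on light relative to input was -0.78 (SE 0.22, edgeR adjusted p = 1), and -0.77 without shDap5 input 2. Such opposite separation was seen in 18 of 15072 tested genes (0.119%).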

How the results depend on the processing

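By edgeR, 0 genes were called with all libraries, and 0 under DESeq2, other scaling, other filters, the 12 libraries alone and every replicate block. Over the 18 fits that left out libraries the count ran from 0 to 11, and it was above 0 only without shDap5 input 2 (8) and without shDap5 number 2 (11). Genes with an unadjusted p under 0.05 numbered 320 with all libraries, 448 with only the 12 libraries, 658 under a replicate block, 657 under a replicate block within arm and 1622 (10.8%) under a replicate block within fraction, where the smallest adjusted p was 0.234 and Eif4g2 was at -0.95. The block within fraction and the fits that left out 1 library were added after seeing the data. Without a filter the number was 585 of 26970 genes, and at 5 CPM or more 127. Scaling by library size moved Atf4 to 0.0050, the opposite sign to -0.05. With libraries left out, Atf4 ran from -0.19 to 0.14, Cdh1 from -0.10 to 0.14 and Zeb2 from -0.031 to 0.64. Among the 79 genes followed, 703 values under other settings kept their direction and side of the threshold and 1 reversed. With libraries left out these were 1391 and 12, and 19 passed the threshold that had not before. The 19 came only from the fits without shDap5 input 2 (8) and without shDap5 number 2 (11). All genes called there are among the 79, several of them taken up after their values were seen. The 19 is therefore no measure of stability. List medians were less stable in sign, and 19 of 38 took the opposite sign in at least 1 fit that left out libraries (86 of 684 medians), against 8 of 38 under other settings. The cause was not tested. The median SE was 0.28 for genes at 5 CPM or more and 0.68 for those below, so low genes had to differ more to be seen.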

Other observations

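Other gene groups are given as values. Zinc finger genes of the Zfp family, most of them DNA-binding repressors, had 96 of 319 members above 0 and a median of -0.12, with 8 unadjusted p-values under 0.05, all below 0, and 0 called by edgeR. Zfp101 was the member with the smallest p, at -1.09 (SE 0.41), and separated the arms on light polysomes. Replication-dependent histone genes, whose mRNAs lack a polyA tail and which polyA selection captures in part, had 12 of 36 above 0. Their median was -0.26, against 1.57 on heavy polysomes relative to the same inputs. These genes were near the floor, with a median level of 0.260 CPM, and the median SE on light relative to input was 1.13. Angiogenic factors had 18 of 26 above 0 and a median of 0.15. Nov, a matricellular protein of that list, stood at 1.09, 1.53 and 1.16 CPM in shDap5 and 2.49, 3.30 and 2.23 CPM in NSi on light polysomes, and at 1.21, 3.24 and 0.98 CPM in shDap5 and 11.2, 8.99 and 11.1 CPM in NSi inputs. Its difference was 1.45 (SE 0.51, edgeR adjusted p = 1), and 2.17 (SE 0.39, edgeR adjusted p = 0.0544) without shDap5 input 2.

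Hypoxia and glycolysis genes had 14 of 30 above 0 and a median of -0.01 (-0.16 without shDap5 input 2). Eno2, a neuronal enolase, was at 0.69 (SE 0.29) with the arms separated in both fractions. Integrins, TGF-beta and BMP genes, matrix proteases and chemokines had medians of 0.07, 0.08, 0.05 and -0.14. Regulators of eIF2 phosphorylation, chaperones of ER stress, elongation factors with other TOP mRNAs, apoptosis regulators and mRNAs with iron-responsive elements had medians of -0.07, 0.02, -0.02, -0.11 and 0.10. edgeR called 0 members of these lists. Without shDap5 input 2 the medians of integrins, TGF-beta and BMP genes and matrix proteases were 0.02, 0.04 and 0.0040, and those of the eIF2 regulators and the chaperones changed sign, to 0.0066 and -0.020. Of the macrophage markers Cd68 was at 1.13 (SE 0.71) and Csf1r at -0.55 (SE 0.37). Cd68 inputs stood at 12.4, 50.9 and 10.6 CPM in shDap5 and 44.3, 44.9 and 39.9 CPM in NSi. Its value thus depends on shDap5 input 2, and the fit without that library was not read for it. The markers of macrophages summed to 55.4 to 105 CPM in shDap5 and 51.1 to 66.4 CPM in NSi light libraries, and to 36.4 to 74.0 CPM in shDap5 and 56.7 to 64.0 CPM in NSi inputs. Fibroblast markers summed to 13.0 to 14.4 CPM in shDap5 and 12.2 to 15.3 CPM in NSi light libraries, and to 23.2 to 29.9 CPM in shDap5 and 30.2 to 40.2 CPM in NSi inputs. Endothelial markers summed to 95.1 to 106 CPM in shDap5 and 95.9 to 105 CPM in NSi light libraries. In input they summed to 70.5 to 79.9 CPM in shDap5 and 76.3 to 81.2 CPM in NSi. Vwf, Pecam1 and Cdh5 reached at most 0.579, 0.570 and 0.434 CPM in any of the 12 libraries, and Tie1 5.16 CPM. These members thus made up little of the endothelial sum.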
